A study of Danio rerio with 18 samples.

Results

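The comparison was between maternal zygotic scospondin mutants (MZ) and heterozygotes (het) of the stl297 allele at 15 days post fertilization (dpf), in RNA from whole zebrafish larvae, with 3 libraries of each genotype. These 6 libraries were taken by genotype and age from the 18 of the series, which holds both genotypes also at 5 and 30 dpf. MZ fish are homozygous offspring of homozygous mothers, so they lack both the maternal and the zygotic wild-type product, and every fish of the comparison carried the stl297 allele, which the submitters describe as hypomorphic. No treatment was given, and no wild-type group entered the comparison. The labels do not say how many larvae made up a library or whether libraries came from separate clutches, so p-values here measure only the spread between these libraries. The crosses are not given either, so any difference of clutch, mother or linked alleles between the 2 genotypes cannot be told apart from the allele itself.

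SCO-spondin is a very large glycoprotein secreted by the subcommissural organ and floor plate, and it polymerizes into the Reissner fibre, which stretches caudally from the brain within the cerebrospinal fluid of the spinal canal. In zebrafish the fibre, together with motile cilia and neurons that contact the cerebrospinal fluid, keeps the body axis straight, and fish with a defective fibre develop spinal curvature during larval and juvenile growth. At 15 dpf larvae are free-feeding, and their retina, muscle and skeleton are growing.

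The 3 MZ libraries held 13720410, 10799674 and 13708735 counts and the 3 het libraries 14772462, 13284157 and 13875128, over 23567 to 24070 genes with at least 1 count. Replicates of a genotype correlated with Pearson's r of 0.983 to 0.990 across genes, and every pair differed by more than sampling noise. Levels are given as CPM, the counts of a gene scaled to a common library total. The liver transferrin gene tfa (1446 to 2331 CPM in MZ and 1401 to 2233 in het), the fast muscle myosin myhz2 and the ultraviolet cone opsin opn1sw1 were all abundant, as the label of whole body implies. The targeted gene was almost unread: scospondin had 2, 4 and 7 counts in the MZ libraries and 2, 1 and 2 in the het libraries, and it lay under the count filter described below. It was kept in the fit all the same, where its edgeR adjusted p was 0.267. At this depth scospondin gives no check of the genotype labels.

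Of 19307 genes tested with edgeR's quasi-likelihood test (a filter at a minimum count of 10, with scospondin added), 172 (0.891%) passed an adjusted p of 0.05 and are named as called below: 86 (0.445%) were higher in MZ and 86 (0.445%) lower. Only 26 of the higher and 10 of the lower genes differed by more than 2-fold. The groups of 3 did not overlap in CPM for any of the 172, against 23.5% of all genes tested. Before adjustment, 1854 genes (9.6%) were higher and 1788 (9.26%) lower at p under 0.05. The count of calls rested on the library set. Leaving out the first MZ library gave 922 calls (4.7% of 19627 genes tested), leaving out the second gave 91 and leaving out the third gave 3, while leaving out het replicate 1, 2 or 3 in turn gave 2, 2 and 118. All 172 kept their direction in every one of these fits. Since their groups do not overlap, leaving out a library could hardly turn a sign, so this does not measure stability. Among the genes named below si:dkey-224b4.5 alone kept its call in all 6. Where a list's calls without MZ replicate 1 are given below, they come from the fit with the most calls. The counts of called members below stand beside a share of 0.445% of all genes tested in each direction. At that share most lists would hold 0 or 1 call, so such a count says little about a list.

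Gene length moved with genotype. The genes called higher had a median length of 1170 bases and those called lower 4200.5 bases, against 2372 over all genes tested. For each library, the slope of the level (log2 CPM minus its mean over the 6 libraries) was taken on log10 gene length. The slope was -0.0382, -0.203 and -0.296 log2 units per 10-fold length in the MZ libraries, against 0.262, 0.195 and 0.0810 in the het libraries. All 3 MZ slopes lay below all 3 het slopes, a difference of -0.358 with an exact two-sided permutation p of 0.1, the smallest that 3 against 3 allows. Among the shortest 10% of genes the median fold change was 0.20 on the log2 scale, and that class held 35 of the genes called higher and 2 of those called lower. The sign was the opposite at 5 dpf, where the MZ minus het slope was 0.334, while at 30 dpf it was -0.368.

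**Figure D1:**
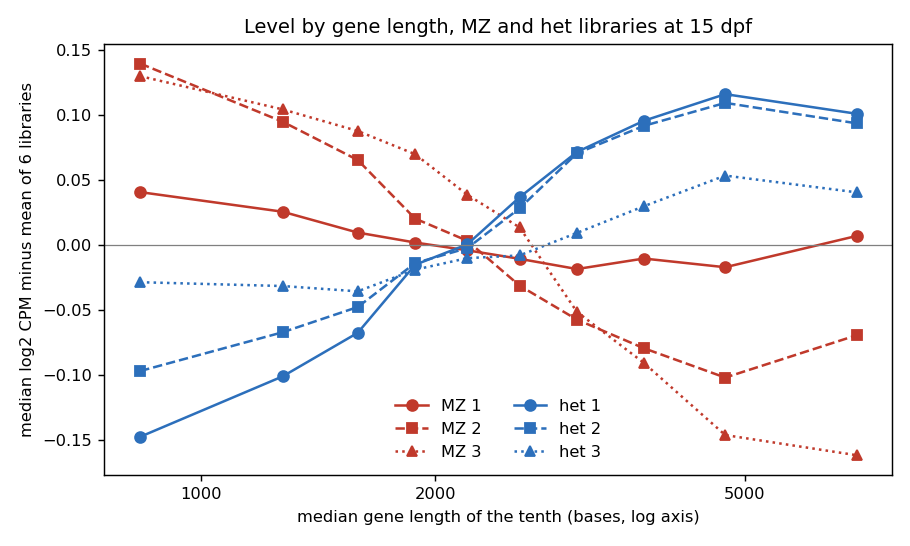
Median level of genes in 10 classes of gene length (bases, log axis), as log2 CPM minus the mean of the 6 libraries, for the 3 MZ libraries (red) and the 3 het libraries (blue) at 15 dpf. MZ lines lie above het lines among short genes and below them among long genes.

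Because of this trend each gene was also tested with the trend removed from every library, as a second fit. Where a gene has a pair of values in parentheses, the first is its log2 fold change in the plain fit and the second that with the trend removed. Across genes the correlation of fold change with log10 length was -0.288 in the plain fit and 0.0153 in the second, over 19307 genes that share the same 6 libraries. The second fit called 18 genes (0.0932%), 12 higher (0.0622%) and 6 lower (0.0311%), and all 18 were among the 172. At an unadjusted p under 0.05 it had 1558 genes higher (8.07%) and 1227 lower (6.36%). All 172 genes kept their direction in it. The trend was small beside their differences: median log2 fold changes by length class ran from 0.20 to -0.18, against a median size of 0.72 for the called genes. The kept signs were therefore all but fixed and are not a separate result. A call lost in the second fit does not by itself mean a smaller difference, since an adjusted p rests on all genes tested.

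**Figure D2:**
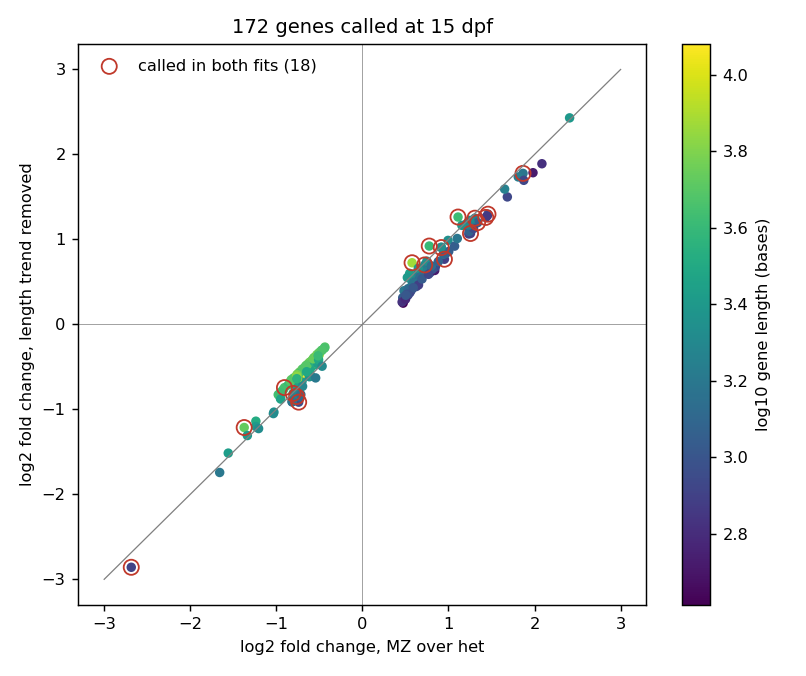
Log2 fold change, MZ over het, of the 172 called genes in the plain fit (x axis) and with the length trend removed (y axis), coloured by log10 gene length in bases. All points lie in the quadrants of equal sign, and the 18 genes called in both fits are circled.

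Among the 18 genes called in both fits, retinal genes stood at the higher end. The gene cabp5a encodes a calcium-binding protein of retinal bipolar cells, and it had 14.4, 9.60 and 8.19 CPM in MZ, against 3.17, 3.36 and 2.33 CPM in het, a log2 fold change of 1.87 ± 0.24 (SE, n = 3 each; edgeR adjusted p = 0.0152) and 1.78 with the trend removed (edgeR adjusted p = 0.0272). Its paralog cabp5b had 39.0, 24.5 and 44.8 CPM in MZ, against 14.6, 12.1 and 16.2 CPM in het (log2 fold change 1.34, and 1.2 with the trend removed). The gene pde6h, the inhibitory subunit of the cone phosphodiesterase, had 331, 225 and 410 CPM in MZ, against 106, 103 and 148 CPM in het (log2 fold change 1.43 ± 0.19; 1.26 with the trend removed, edgeR adjusted p = 0.0342). For all 3 genes the lowest MZ library lay above the highest het library, and MZ replicate 2 was the lowest MZ library for cabp5b and pde6h. RNA from whole larvae cannot tell fewer or more cells of a type from less or more RNA per cell.

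The neuronal calcium sensor ncaldb, of the neurocalcin family, had 49.3, 34.4 and 44.3 CPM in MZ and 23.6, 19.7 and 24.6 CPM in het, a log2 fold change of 0.92 that was 0.90 with the trend removed. The anti-apoptotic gene bcl2b (log2 fold change 0.78), the Polycomb chromobox gene cbx7a (0.72) and the organic anion transporter gene slc22a7b.3 (1.31) were called higher in both fits too. The nuclear long noncoding RNA malat1 took 1.25, 1.07 and 1.25% of all counts in MZ libraries and 0.933, 0.793 and 0.879% in het libraries, and its log2 fold change was 0.58 in the plain fit and 0.73 with the trend removed. The other genes called higher in both fits have clone-based names: si:ch211-237l4.6 (1.46), si:rp71-77l1.1 (0.95), zgc:193593 (1.11) and si:dkey-224b4.5, which had 22.1, 23.0 and 24.6 CPM in MZ and 10.4, 9.07 and 9.73 CPM in het (log2 fold change 1.26 ± 0.12, edgeR adjusted p = 0.00300; 1.07 and 0.0101 with the trend removed).

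Of the 6 genes called lower in both fits, the largest difference was in GSTK1_(4_of_4), one of 4 copies annotated as a kappa class glutathione transferase, with 10, 11 and 8 counts in MZ and 65, 62 and 99 counts in het (log2 fold change -2.69 ± 0.32, edgeR adjusted p = 0.0131; -2.86 with the trend removed). Reads may be split between such copies, so its level is uncertain, and its call was lost without MZ replicate 3, where the log2 fold change was -2.54. The kinase gene sik1, which is induced by cAMP and calcium signals, had 39.1, 19.3 and 24.6 CPM in MZ and 77.7, 79.3 and 59.5 CPM in het (log2 fold change -1.37 ± 0.20, edgeR adjusted p = 0.0201; -1.21 with the trend removed). Its MZ libraries all lay below the het libraries, replicate 1 the nearest. The transcription factor gene klf2a, known for its response to blood flow in endothelium, had 39.2, 37.9 and 29.3 CPM in MZ and 59.9, 71.2 and 54.9 CPM in het (log2 fold change -0.80; -0.81 with the trend removed). The hyaluronidase gene hyal4 had 15.4, 15.6 and 13.4 CPM in MZ and 24.9, 30.3 and 28.2 CPM in het (-0.91; -0.74). The peptidoglycan recognition gene pglyrp6 (-0.76; -0.85) and the translation initiation factor gene EIF1B (-0.74; -0.92) completed the set, and both differences were larger in size once the trend was removed.

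The cone photoreceptor list was the one with the highest median. Of 29 cone phototransduction genes tested, 4 were called higher and 0 lower, 27 had a positive fold change, and the median log2 fold change was 0.76, which stayed at 0.75 with the trend removed (all genes tested: -0.01 and 0.01). Before adjustment 20 of the 29 were higher and 0 lower, and 19 and 0 with the trend removed. MZ lay wholly above het for 13 of them, against 10.8% of all genes in that direction. The median was lowest without het replicate 2, at 0.55, since that library had the least cone RNA of the 6.

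The ultraviolet opsin gene opn1sw1 had 998, 604 and 1181 CPM in MZ, against 409, 260 and 512 CPM in het, a log2 fold change of 1.24 ± 0.24 (edgeR adjusted p = 0.0423; 1.17 and 0.0787 with the trend removed). The cone arrestin arr3b, which ends the light response, had 283, 158 and 289 CPM in MZ and 102, 83.0 and 121 CPM in het (log2 fold change 1.26; 1.19). The transducin gamma subunit gngt2b had 128, 113 and 167 CPM in MZ and 73.2, 60.7 and 94.1 CPM in het (0.84; 0.63). In all 3 genes the second library of each genotype was the lowest, and no MZ library reached down to a het library. Only pde6h of the 4 called cone genes was called in both fits.

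Rod genes gave weaker values. None of 14 rod genes was called by edgeR, 4 were higher at an unadjusted p under 0.05, and the median was 0.45, or 0.40 with the trend removed. Rhodopsin itself, rho, had 649, 561 and 906 CPM in MZ and 563, 292 and 702 CPM in het, so that the groups overlapped (log2 fold change 0.44 ± 0.25, edgeR adjusted p = 0.356). Rod transducin gnat1 had 41.1, 42.8 and 64.7 CPM in MZ and 34.2, 22.7 and 48.0 CPM in het (0.50 ± 0.23, edgeR adjusted p = 0.258). Without MZ replicate 3 the rod median was 0.22. Whether the cone and the rod differences themselves differ was not tested.

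A few genes of the inner retina and pigment epithelium were called higher. Among 27 genes of retinal bipolar and amacrine cells 4 were called higher and 0 lower (cabp5a, cabp5b, calb2a and calb2b), with a median of 0.29 and 0.31 with the trend removed, where cabp5a and cabp5b were called. The calretinin genes calb2a and calb2b encode calcium buffers of amacrine and other neurons, so they are not specific to the retina. The first had 85.2, 74.1 and 65.7 CPM in MZ and 39.7, 55.8 and 46.1 CPM in het (log2 fold change 0.67), and the second 40.8, 33.5 and 50.8 CPM in MZ and 26.7, 25.5 and 23.7 CPM in het (0.72). Another member of the calcium-binding protein family, cabp2a, had 67, 23 and 49 counts in MZ and 12, 21 and 18 in het (1.65 ± 0.35, edgeR adjusted p = 0.0491). Of 19 visual cycle and pigment epithelium genes 1 was called higher: rgra, a retinal G protein receptor opsin that isomerizes retinal, with 12.3, 8.52 and 8.82 CPM in MZ and 5.18, 4.68 and 5.35 CPM in het (0.97). The median of that list was 0.41, and 0.48 with the trend removed, where none was called. The retinoid-binding protein gene irbp had a log2 fold change of 0.37 with overlapping groups (edgeR adjusted p = 0.452). The bipolar and amacrine median was 0.15 without MZ replicate 3.

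**Figure D3:**
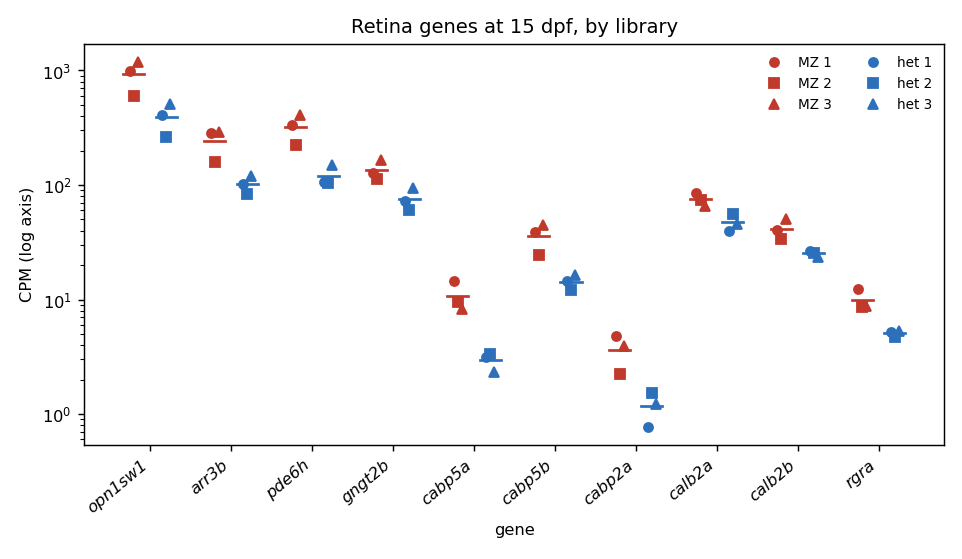
CPM (log axis) of 10 called genes described with the retina, not all of them specific to it, at 15 dpf. Points are the 3 MZ libraries (red, left of each pair) and 3 het libraries (blue, right), with a line at each group mean. For each of the 10 genes all MZ points lie above all het points.

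For some of these retinal genes, as for some pan-neuronal genes given below, the genotype effect differed from that at 30 dpf. By edgeR's test of the difference between effects, over all 18 libraries, 9 of the 29 cone genes had a different effect at 15 than at 30 dpf, against 3.86% of all genes, and the median effect was 0.76 at 15 dpf and -0.01 at 30 dpf. The largest of these differences among the called retinal genes was in cabp5a, whose log2 genotype effect at 15 dpf differed by 2.78 from that at 30 dpf and by -1.69 from that at 5 dpf (effect at 15 dpf minus the other age). From 5 dpf, where the median was 0.40, 5 of the 29 cone genes differed, a share no higher than the 18.5% of all genes. Over all genes 817 effects differed between 15 and 30 dpf, and 346, 374 and 404 did without MZ replicate 1, het replicate 1 and het replicate 3 at 15 dpf.

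Of 59 pan-neuronal and synaptic genes 2 were called higher and 0 lower: the synaptic vesicle fusion genes snap25b, with 154, 117 and 150 CPM in MZ and 85.5, 88.1 and 87.2 CPM in het (log2 fold change 0.69; 0.60 with the trend removed), and vamp1 (0.65; 0.66). The median of the list was 0.18, and it was -0.01 without MZ replicate 1, because that library had a mean level 0.44 above the 6-library mean, while MZ replicates 2 and 3 were at -0.08 and -0.13. Het replicates 1 to 3 were at -0.11, 0.10 and -0.21. By edgeR's test of the difference, 25 of the 59 had a different effect at 15 than at 30 dpf (3.86% of all genes). From 5 dpf 28 differed (18.5% of all genes). The median effect was 1.09 at 5 dpf, 0.18 at 15 dpf and -0.76 at 30 dpf. A change from 30 dpf was therefore not particular to the retinal lists. None of 30 glia and myelin genes was called by edgeR (median 0.01), with 5 higher and 1 lower at an unadjusted p under 0.05. The share of head tissue in each library was not tested.

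Lens genes were called in the plain fit alone. Of 59 crystallin and lens fibre genes 5 were called higher and 0 lower, with a median of 0.24 and of 0.08 with the trend removed; 28 were higher and 5 lower before adjustment in the plain fit, and 13 and 7 in the second. The called genes were the gamma M crystallins crygm2d1, crygm2d2, crygm2d4, crygm2d12 and crygm7, with log2 fold changes of 0.53 to 0.77, and none of the 5 was called with the trend removed (0.34 to 0.59). They are the structural proteins that give the lens its refractive index, and their genes are short: 819 to 1071 bases. The gene crygm2d2 had 762, 791 and 987 CPM in MZ and 591, 553 and 502 CPM in het. The called crygm2d genes are near-identical copies, so reads may be split between them and their calls are not independent. Whether crygm7 shares reads with them was not tested. The list had 19 calls without MZ replicate 1, where 4.7% of all genes tested were called. Its median was 0.15 without MZ replicate 3.

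Collagens were the list with the lowest median. Of 25 fibrillar and network collagen genes 7 were called lower and 0 higher, 23 had a negative fold change, and the median was -0.47. Collagen genes are long (median 6021 bases), and in the class of the longest genes the median log2 fold change was -0.14. With the length trend removed the collagen median was -0.30 and no member was called. Before adjustment 11 were then lower and 0 higher, against 17 and 0 in the plain fit. MZ lay wholly below het for 16 of the 25, against 12.7% of all genes in that direction.

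The 3 type I collagen genes, which encode the main fibre of bone, skin and tendon, were all called lower. For col1a1a there were 571, 595 and 568 CPM in MZ and 977, 902 and 794 CPM in het (log2 fold change -0.62 ± 0.10, edgeR adjusted p = 0.0243; -0.46 and 0.0743 with the trend removed). For col1a2 there were 343, 377 and 350 CPM in MZ and 647, 573 and 558 CPM in het (-0.73 ± 0.10, edgeR adjusted p = 0.0152; -0.56 and 0.0548). MZ libraries were close to each other in these genes, and het libraries more spread. Its partner col1a1b had 219, 244 and 229 CPM in MZ and 356, 331 and 332 CPM in het (-0.56; -0.39). The fibril-associated collagens col12a1a (-0.59) and col12a1b (-0.67), the basement membrane chain col4a1 (-0.75) and the microfibrillar col6a1 (-0.61) were the other called members.

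Some genes that remodel the matrix were called lower. Of 37 matrix proteases and inhibitors 5 were called lower and 1 higher, with a median of -0.29 and of -0.22 with the trend removed. The gelatinase mmp2 had 71.9, 68.4 and 64.2 CPM in MZ and 103, 98.0 and 101 CPM in het (log2 fold change -0.56; -0.48). The membrane protease mmp14a, which activates mmp2 in vertebrates, had 20.9, 19.8 and 18.9 CPM in MZ and 33.1, 31.4 and 31.5 CPM in het (-0.69; -0.57), and its paralog mmp14b 17.8, 14.3 and 10.5 CPM in MZ and 22.9, 27.7 and 30.1 CPM in het (-0.92; -0.77). The others called lower were adamts1 (-0.95) and the stromelysin-like mmp11b (-1.66), which had 25, 15 and 7 counts in MZ and 63, 64 and 50 in het. The 1 called higher was an inhibitor, timp4a, with 26.8, 29.7 and 31.6 CPM in MZ and 20.5, 18.6 and 20.2 CPM in het (0.57; 0.41). None of these 6 was called with the trend removed. Without MZ replicate 1 the list's median was -0.49.

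Among 52 matrix glycoprotein and crosslinking genes 2 were called lower and 0 higher, the median was -0.34 (-0.26 with the trend removed), and 25 were lower and 1 higher before adjustment. The called genes were tenascin C (tnc, -0.50), and cyr61, a matricellular gene induced by growth factors and stretch, with 22.1, 15.9 and 19.7 CPM in MZ and 33.1, 30.2 and 30.8 CPM in het (-0.70; -0.67). The collagen-binding glycoprotein gene sparc had 421, 450 and 417 CPM in MZ and 508, 535 and 541 CPM in het, without overlap, but did not pass (-0.30 ± 0.09, edgeR adjusted p = 0.113). Bone formation and resorption genes had a median of -0.31 (-0.22), and the 3 called lower among 27 were the type I collagen genes already described. The bone morphogenetic protein gene bmp5 was called lower, with 6.28, 6.27 and 3.66 CPM in MZ and 10.7, 10.23 and 12.1 CPM in het (-1.03 in both fits).

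None of 32 cartilage matrix genes was called by edgeR, though 28 had a negative fold change. At an unadjusted p under 0.05, 8 were lower and 0 higher, and the median of -0.26 came to -0.12 with the trend removed and to -0.05 without het replicate 3, which stood 0.47 above the 6-library mean. Its level of matn1, a cartilage matrilin, was 156 CPM, against 48.3 and 58.6 CPM in the other two het libraries, while MZ libraries had 65.7, 48.7 and 31.6 CPM (log2 fold change -0.85 ± 0.36, edgeR adjusted p = 0.231). The gene col10a1a of hypertrophic cartilage and bone cells had 180, 145 and 108 CPM in MZ and 166, 216 and 250 CPM in het, with overlap (-0.54 ± 0.18, edgeR adjusted p = 0.132).

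For some collagen genes the effect differed from that at 30 dpf. The type I genes col1a1a, col1a1b and col1a2 had log2 genotype effects at 15 dpf that differed from those at 30 dpf by -0.84, -0.95 and -0.90, and 9 of the 25 collagens differed by edgeR's test of the difference between these ages, against 3.86% of all genes. The list's median was -0.21 at 5 dpf, -0.47 at 15 dpf and 0.12 at 30 dpf. For the matrix glycoproteins 20 of 52 differed from 30 dpf.

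Immediate early and signal-responsive genes are those whose transcription changes within minutes or hours of a stimulus. Of 48 5 were called lower and 0 higher, the median was -0.37 and hardly moved with the trend removed (-0.35), and 25 were lower and 2 higher before adjustment, and 27 and 2 with the trend removed. The called genes were sik1 and klf2a, given above, and egr3, btg2 and gadd45ba. The zinc finger factor egr3 had 18.04, 8.82 and 9.30 CPM in MZ and 32.2, 31.1 and 23.0 CPM in het (log2 fold change -1.24 ± 0.23, edgeR adjusted p = 0.0391; -1.14 and 0.0743 with the trend removed). The antiproliferative btg2 had 101, 56.4 and 53.0 CPM in MZ and 157, 162 and 112 CPM in het (-1.03; -1.05). The growth arrest gene gadd45ba had 47.1, 43.5 and 41.4 CPM in MZ and 64.5, 72.5 and 55.5 CPM in het (-0.54; -0.63). In all 3 of these MZ replicate 1 was the highest MZ library and het replicate 3 the lowest het library.

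That order held for the list as a whole. Its mean level relative to the 6-library mean was 0.10, -0.40 and -0.35 in MZ replicates 1 to 3, against 0.32, 0.35 and -0.02 in het replicates 1 to 3, so MZ replicate 1 stood above het replicate 3. Without MZ replicate 1 the median was -0.56 and 23 members were called, against 4.7% of all genes tested in that fit. Without MZ replicate 3 the median was -0.33.

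The bZIP factors cebpb and cebpd, which act downstream of stress and inflammatory signals, were the 2 genes called lower among 29 glucocorticoid response genes (0 higher, 11 positive, median -0.08). The first had 126, 80.0 and 103 CPM in MZ and 192, 202 and 150 CPM in het (log2 fold change -0.82; -0.91 with the trend removed), and the second 193, 132 and 135 CPM in MZ and 278, 258 and 226 CPM in het (-0.73; -0.85). The inducible prostaglandin synthase ptgs2b had 22.2, 12.8 and 16.6 CPM in MZ and 51.3, 47.7 and 23.9 CPM in het (-1.24 ± 0.25, edgeR adjusted p = 0.0449; -1.20 and 0.0765). Among 34 inflammation and myeloid genes ptgs2b was the 1 called lower and hamp, which encodes the iron-regulating peptide hepcidin, the 1 called higher, with 18.5, 15.1 and 18.6 CPM in MZ and 9.71, 7.90 and 4.52 CPM in het (1.24). The median of that list was 0.13, and 22 of its members had a positive fold change.

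By edgeR's test, 28 of the 48 signal-responsive genes had a different genotype effect at 15 than at 5 dpf, against 18.5% of all genes, and 6 of the 48 differed from 30 dpf, against 3.86% of all genes, and the list's median effect was 0.58 at 5 dpf, -0.37 at 15 dpf and 0.12 at 30 dpf. For egr3 the log2 effect at 15 dpf differed by -2.23 from that at 5 dpf and by -1.39 from that at 30 dpf, while for klf2a the difference from 5 dpf was 1.33. Of 43 circadian clock genes 0 were called by edgeR, against 0.891% of all genes, so this absence says little. At an unadjusted p under 0.05, 2 were higher and 6 lower (9.6% and 9.26% of all genes), and the median was -0.07. The light-induced clock gene per2 had 71.2, 63.3 and 62.3 CPM in MZ and 86.0, 83.4 and 67.9 CPM in het (-0.27 ± 0.11, edgeR adjusted p = 0.229), although its log2 effect at 15 dpf differed by -4.23 from that at 5 dpf, and 26 of the 43 clock genes differed from 5 dpf.

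**Figure D4:**
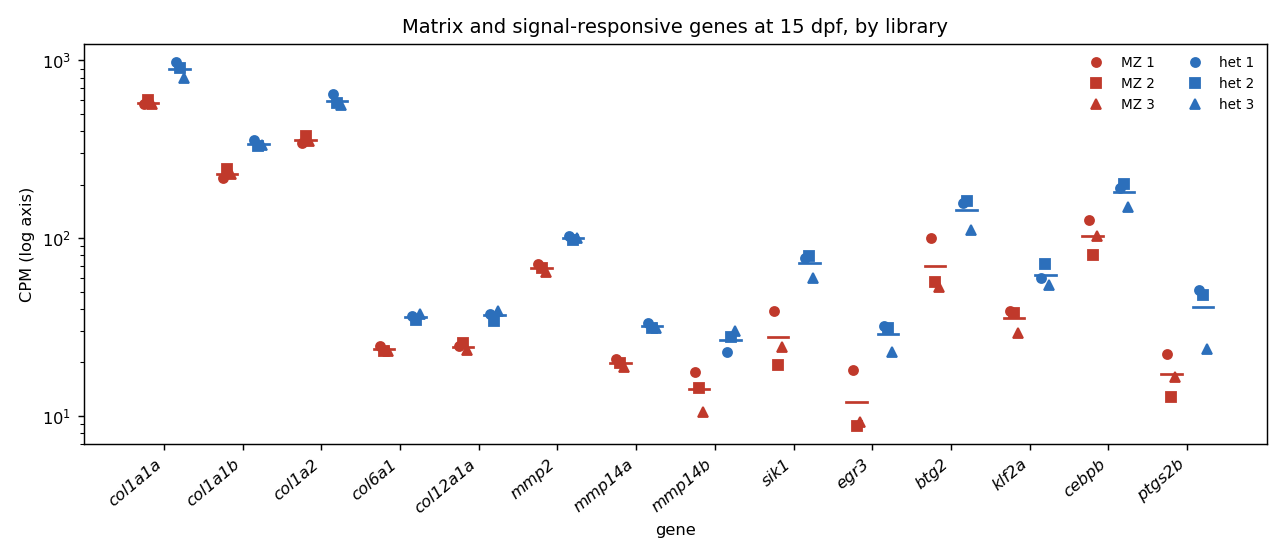
CPM (log axis) of 14 called matrix and signal-responsive genes in each of the 3 MZ libraries (red, left of each pair) and 3 het libraries (blue, right) at 15 dpf, with a line at each group mean. All MZ points lie below all het points for each gene. MZ replicate 1 (circle) is the highest MZ point in sik1, egr3, btg2, klf2a, cebpb and ptgs2b, and also in col6a1, mmp2, mmp14a and mmp14b.

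Of 72 DNA replication and mitosis genes 4 were called lower and 0 higher, the median was -0.26 (-0.21 with the trend removed), and 29 were lower and 1 higher before adjustment, or 26 and 2 with the trend removed. The mitotic kinesin kif11 had 8.66, 10.09 and 12.3 CPM in MZ and 18.5, 19.5 and 16.6 CPM in het (log2 fold change -0.81; -0.68). The proliferation marker mki67 had 23.1, 21.8 and 25.2 CPM in MZ and 37.2, 32.5 and 40.9 CPM in het (-0.66; -0.52). The DNA polymerase alpha subunit pola1 (-0.75; -0.58) and uhrf1 (-0.64; -0.48), which maintains DNA methylation at replication, were the others, and none of the 4 was called with the trend removed. All 4 genes are longer than the median tested gene. At 5 dpf the median of this list was -0.65, and the effect of 23 of the 72 differed between the 2 ages by edgeR's test, against 18.5% of all genes.

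Of 45 fast muscle genes 4 were called lower and 0 higher (14 positive, median -0.12, and -0.11 with the trend removed). The fast myosin heavy chain myhz2 had 900, 974 and 994 CPM in MZ and 1681, 1391 and 1432 CPM in het (log2 fold change -0.65; -0.48), and myhz1.3 had 662, 538 and 580 CPM in MZ and 912, 920 and 825 CPM in het (-0.58; -0.42). These myosins are close tandem copies that can share reads. The Z disc gene actn3b (-0.48; -0.31) and the fast troponin I gene tnni2a.3 (-0.82; -0.91) were the other called genes. Of 20 slow and cardiac muscle genes, 13 of them positive, 2 were called higher and 0 lower, both myosin light chains of the heart. The cardiac light chain cmlc1 had 31.8, 24.8 and 27.8 CPM in MZ and 9.71, 9.21 and 16.9 CPM in het (1.24 ± 0.20, edgeR adjusted p = 0.0262; 1.06 and 0.0708), and myl7 had 33.1, 28.7 and 32.4 CPM in MZ and 14.7, 12.3 and 22.1 CPM in het (0.94; 0.82). In both het replicate 3 was the het library nearest to MZ. The list's median was 0.26, and 0.16 without MZ replicate 3. None of these 6 genes was called with the trend removed. For tnni2a.3 the unadjusted edgeR p nonetheless went from 0.00041 to 0.00018, while it rose for the others. The difference between the 2 muscle lists was not tested.

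Ribosomal protein genes showed small differences in 1 direction. All 83 were tested and all 83 had a positive fold change, with a median of 0.35, or 0.21 with the trend removed; 4 were called higher and 0 lower, and 78 were higher at an unadjusted p under 0.05 (50 with the trend removed). The called genes were rplp2, rps12, rps26l and rps28, with log2 fold changes of 0.46 to 0.48. The gene rps12 had 1349, 1548 and 1442 CPM in MZ and 978, 1085 and 1038 CPM in het (edgeR adjusted p = 0.0434; 0.28 and 0.153 with the trend removed). These genes are short (median 1103 bases), and MZ replicate 1, whose length slope was nearest to the het libraries, was the lowest MZ library on this list: 0.05, 0.26 and 0.20 in MZ replicates 1 to 3, against -0.24, -0.15 and -0.12 in het. Without MZ replicate 1, 76 of the 83 were called, against 4.7% of all genes tested in that fit. Over all genes only 3, 2 and 2 calls were left without MZ replicate 3, het replicate 1 and het replicate 2. The sign was the reverse at 5 dpf, where the median was -0.42. By edgeR's test 82 of the 83 effects differed between 15 and 5 dpf, against 18.5% of all genes. That fit did not remove the length trend, whose sign also turned between these ages. Nuclear genes of oxidative phosphorylation, which are shorter still (median 880 bases), had 0 of 95 called, 48 higher and 0 lower before adjustment, and a median of 0.22 that came to 0.07 with the trend removed, where 9 were higher.

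Of 38 apolipoprotein and lipid transport genes 3 were called higher and 0 lower, with a median of 0.27 and of 0.21 with the trend removed; 15 were higher and 3 lower before adjustment in the second fit. The intestinal apolipoprotein apoa4a had 1009, 1338 and 1504 CPM in MZ and 839, 810 and 830 CPM in het (log2 fold change 0.64; 0.47), apoc2, the activator of lipoprotein lipase, 701, 943 and 1128 CPM in MZ and 602, 560 and 552 CPM in het (0.69; 0.53), and apoea 932, 1126 and 1223 CPM in MZ and 825, 681 and 670 CPM in het (0.59; 0.49). In each MZ replicate 1 lay nearest to het. Without MZ replicate 1, 14 of the 38 were called, against 4.7% of all genes tested in that fit. Pancreatic amylase amy2a had 413, 507 and 587 CPM in MZ and 270, 309 and 352 CPM in het (0.70; 0.62) and was the 1 called among 24 exocrine pancreas genes (median 0.17, and 0.06 with the trend removed), of which 2 were higher at an unadjusted p under 0.05, a share under that of all genes. The intestinal amino acid transporter slc6a19b, the 1 called among 42 intestine genes (median 0.18), had 80.2, 89.0 and 83.2 CPM in MZ and 52.9, 58.5 and 64.3 CPM in het (0.52; 0.55).

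By edgeR 0 of 49 liver plasma protein genes were called, with 10 higher and 1 lower at an unadjusted p under 0.05 (median 0.09, and -0.04 without MZ replicate 1), and 0 of 42 liver metabolic enzymes, with 12 higher and 1 lower (median 0.19). The liver fatty acid binding protein fabp10a had 1505, 1234 and 1268 CPM in MZ and 805, 1069 and 1017 CPM in het, without overlap but not called (log2 fold change 0.47 ± 0.12, edgeR adjusted p = 0.0753). Of 63 cytochrome P450 genes 51 had a positive fold change and 1 was called, cyp2k6, at 94, 16 and 54 counts in MZ and 12, 15 and 8 in het (2.41 ± 0.47, edgeR adjusted p = 0.0430). Its MZ replicate 2 was within 1 count of het replicate 2, in a smaller library. The P450 median was 0.23 (0.22 with the trend removed) and 0.15 without MZ replicate 3. Of 63 conjugation enzymes the 1 called was GSTK1_(4_of_4), lower in MZ, while the list's median was 0.20.

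Among brain and pituitary hormone genes, 18 were tested and 2 were called higher, with a median of 0.45 and of 0.34 with the trend removed. The midbrain gonadotropin-releasing hormone gene gnrh2 had 61, 20 and 44 counts in MZ and 16, 14 and 4 in het (log2 fold change 2.09 ± 0.43, edgeR adjusted p = 0.0449; 1.89 and 0.104), and the appetite peptide gene npy 9.38, 8.92 and 8.90 CPM in MZ and 4.53, 5.04 and 5.55 CPM in het (0.85; 0.67). No MZ library of either gene reached down to a het library, after scaling for depth. The neuropeptide adcyap1b had 69.0, 62.2 and 53.5 CPM in MZ and 43.4, 49.5 and 40.6 CPM in het and did not pass (0.47 ± 0.12, edgeR adjusted p = 0.0726; 0.57 and 0.0743).

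Single genes were called in several other lists, where 0.891% of all genes tested were called, so 1 call says little about a list. The globin hbae1, of 29 erythrocyte genes, had 41.1, 31.0 and 17.2 CPM in MZ and 6.67, 12.8 and 13.4 CPM in het (log2 fold change 1.45), while the more abundant hbae3 had 590, 527 and 453 CPM in MZ and 239, 424 and 421 CPM in het and did not pass (0.53 ± 0.18, edgeR adjusted p = 0.149). Globin copies share reads, and the erythrocyte median was 0.16, or -0.03 without MZ replicate 1. The xanthophore gene aox5, of 32 pigment cell genes, was lower (-0.80; -0.63), as were the muscle glycogen phosphorylase pygma (-0.52) of 39 glycolysis genes and the mitochondrial beta oxidation gene hadhab (-0.51) of 33 fat storage and oxidation genes. The copy TRIM14_(22_of_27) was the 1 called of 85 interferon and antiviral genes (1.68), with uncertain read assignment. The carotenoid oxygenase bco2b (-1.56) and the mitochondrial transport GTPase rhot2 (-1.34) were among the 10 lower genes with the largest fold changes, as was itfg3 (-1.21). Among the 10 higher genes with the largest fold changes were tmem174, with 48, 32 and 55 counts in MZ and 4, 15 and 21 in het (1.98), and the beta-defensin-like gene defbl2, with 26, 17 and 32 counts in MZ and 11, 9 and 4 in het (1.88). With the trend removed none of bco2b, rhot2, itfg3, tmem174 and defbl2 was called.

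Genes of the Reissner fibre axis had no calls. Of 5 tested by edgeR 0 were called, against 0.891% of all genes, so in a list this short the absence of calls says little. All 5 had a positive fold change, with a median of 0.55 (0.43 with the trend removed). At an unadjusted p under 0.05, 1 was higher, against 9.6% of all genes. MZ lay wholly above het for 2 of the 5, against 10.8% of all genes in that direction. The urotensin-related peptide genes, which are expressed in neurons that contact the cerebrospinal fluid and act on the straightness of the spine in zebrafish, had few reads. For urp1 there were 2.89, 2.35 and 3.26 CPM in MZ and 1.88, 1.46 and 2.47 CPM in het (log2 fold change 0.55 ± 0.29, edgeR adjusted p = 0.319), and for urp2 2.60, 2.74 and 1.91 CPM in MZ and 1.36, 1.97 and 0.891 CPM in het (0.78 ± 0.34, edgeR adjusted p = 0.241). The groups overlapped in both. Motile cilia genes had 0 of 51 called, with 3 higher and 4 lower before adjustment and a median of 0.04. The Hox (46 genes), proteasome (44), chaperone (60), keratin (34) and notochord (18) lists had no call in edgeR either, against 0.891% of all genes. Their medians ran from -0.07 to 0.09. In each of them at most 6 genes were higher and at most 3 lower before adjustment, against 9.6% and 9.26% of all genes.

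**Figure D5:**
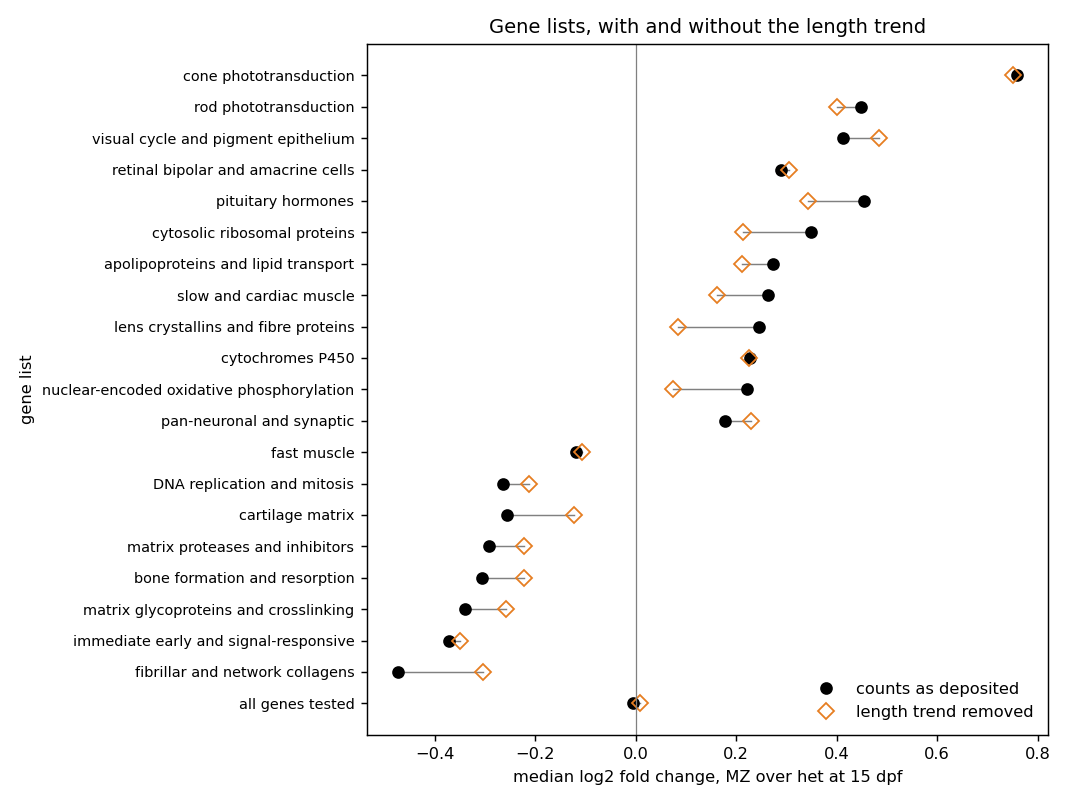
Median log2 fold change, MZ over het at 15 dpf, of 20 gene lists and of all genes tested, from the counts as deposited (filled circles) and with the gene length trend removed (open diamonds). Cone, bipolar and signal-responsive medians hardly move between the fits, while lens, ribosomal, oxidative phosphorylation and collagen medians come closer to 0 once the trend is removed.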

How the data were processed

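RNA was isolated from whole larvae with Trizol and a QIAGEN column and made into libraries with a Takara Clontech SMARTer prep, per the labels' protocols. Per the submitters' processing notes the tools were cutadapt, STAR 2.5.4b, Subread and featureCounts 1.6.3, with build GRCz10; the annotation and strand setting are not given in the sources used here, so overlapping and antisense genes cannot be told apart. The deposited values are raw counts per gene name, with a column of gene length in bases (28870 names, 1231 of them copies with a suffix). All mitochondrially encoded genes are listed at 0.

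Counts of the 6 libraries at 15 dpf were tested in R 4.3.3 with edgeR 4.0.16 (filterByExpr with a minimum count of 10, scospondin kept although it did not pass, TMM scaling, glmQLFit and glmQLFTest, no block, Benjamini-Hochberg over 19307 genes, called at an adjusted p under 0.05). CPM are scaled by TMM over the 6 libraries, and SE is the log2 fold change divided by the square root of F. For the second fit a lowess curve (span 0.3, 3 iterations) of log2 CPM (prior count 2) minus the 6-library mean on log10 length was added to each library's offsets. Differences between ages were contrasts in 1 fit of all 18 libraries. Alternatives used DESeq2 1.42.0 and limma 3.58.1.

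The genotype comparison, its genes and its lists were chosen with earlier results of these data known. Named were the genes called in both fits, the 10 largest fold changes in each direction with 1 CPM or more, called members of the lists, up to 3 abundant members of lists with few calls, and scospondin, leaving aside some clone-based and copy names. List members were matched by gene name, and lists are described by counts and medians without a test. Gene positions and sequences are not used here.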

Additional observations from a re-analysis of the deposited data

Results flagged for a closer look

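The genes below were picked out because their log2 genotype effect, MZ over het, differed between 15 dpf and another age by edgeR's test of the difference over the 18 libraries (adjusted p under 0.05). Each value is the effect at 15 dpf minus that at the other age, so a positive value means a higher effect at 15 dpf. Differences from 5 dpf and from 30 dpf share the 15 dpf libraries and are not independent of each other. Most of these genes were named because they were called at 15 dpf. Their differences therefore lean toward the sign of the 15 dpf effect, and a shared sign is not a separate result. Such a difference was found for 18.5% of all genes against 5 dpf and for 3.86% against 30 dpf. The length trend was not removed in this test, and its MZ minus het slope was 0.334 at 5 dpf and -0.358 at 15 dpf. With the trend removed 2900 genes differed from 5 dpf, against 3920 without, and 916 from 30 dpf, against 817.

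Among the genes described with the retina above, not all of them specific to it, the difference from 30 dpf was 2.78 for cabp5a and 1.90 for cabp2a. It was 1.69 for cabp5b, 1.62 for pde6h and 1.52 for rgra. It was 1.503 for opn1sw1, 1.38 for arr3b, 0.87 for calb2a and 0.80 for calb2b. From 5 dpf it was 0.89 for arr3b, -1.69 for cabp5a and -1.38 for cabp2a. Of the neuronal genes, ncaldb differed by 1.27 from 5 dpf and 1.13 from 30 dpf, vamp1 by -0.64 from 5 dpf and 0.79 from 30 dpf, and snap25b, npy and gnrh2 by 1.24, 1.19 and 3.47 from 30 dpf.

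In the matrix, differences from 30 dpf were -0.84 for col1a1a, -0.95 for col1a1b, -0.90 for col1a2 and -0.93 for col4a1. They were -0.73 for col12a1a, -0.88 for col12a1b, -0.69 for cyr61, -0.89 for mmp14a, -0.84 for mmp14b and -0.82 for mmp2. For sparc, hyal4 and matn1 they were -0.85, -1.12 and -2.29. From 5 dpf they were 0.50 for col1a1a, 0.39 for mmp2 and 0.55 for sparc, and -0.64 for col4a1, -0.82 for mmp14b, -1.06 for hyal4, -1.32 for timp4a and -2.53 for matn1. For matn1 the effect was 1.75 at 5 dpf, -0.85 at 15 dpf and 1.47 at 30 dpf. Its 15 dpf effect ran from -1.14 to -0.13 over the leave-one-out fits, and het replicate 3 alone held 156 CPM. Whether the matn1 differences between ages hold without this library was not tested.

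Signal-responsive genes differed from 5 dpf by -1.87 (sik1), -2.23 (egr3), -2.05 (btg2), -0.64 (gadd45ba) and, with the other sign, 1.33 (klf2a). From 30 dpf they differed by -1.26 (sik1), -1.39 (egr3), -1.09 (btg2) and -0.76 (gadd45ba). Of the glucocorticoid response list, cebpb differed by -1.55 from 5 dpf and -0.92 from 30 dpf, and cebpd by -0.71 and -0.91. The inflammation gene ptgs2b differed by -1.87 from 5 dpf and -1.53 from 30 dpf, and the clock gene per2 by -4.23 from 5 dpf. In muscle, actn3b differed by -1.20 from 5 dpf and -0.90 from 30 dpf, myhz2 by -0.65 and -0.98, tnni2a.3 by -1.41 and -2.12, and pygma by -0.79 and -0.85.

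The ribosomal genes rplp2, rps12, rps26l and rps28 differed from 5 dpf by 1.00, 0.95, 0.96 and 1.03, and the apolipoproteins apoa4a, apoc2 and apoea by 1.39, 1.01 and 1.00. Further differences from 5 dpf were 2.36 for hamp, 1.17 for aox5, 0.56 for fabp10a, 0.94 for si:rp71-77l1.1 and -0.65 for hadhab. Further differences from 30 dpf were 1.202 for bcl2b, 1.199 for slc22a7b.3, 1.31 for zgc:193593, 1.63 for si:ch211-237l4.6, 0.75 for si:rp71-77l1.1, 0.97 for amy2a, 0.94 for fabp10a, -0.63 for hadhab, -1.65 for bco2b and -3.25 for GSTK1_(4_of_4).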

How the results depend on the processing

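The 172 calls (86 higher, 86 lower) became 166 with RLE size factors, 543 (302, 241) with no filter on low counts, 325 (169, 156) with robust estimation, 278 (144, 134) in one fit over all 18 libraries, 636 (425, 211) with DESeq2, 765 (452, 313) with limma-voom quality weights and 18 (12, 6) with the length trend removed. With replicate number as a block there were 76 (46, 30), and 42 (28, 14) with the trend removed too. The labels do not tie equal numbers to a clutch or day. Deviations of same-numbered libraries correlated by -0.04, -0.03 and 0.06, but so few libraries cannot settle whether the numbers pair them.

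Leave-one-out fits gave 2 to 922 calls (1 to 604 higher, 1 to 318 lower), and with the trend removed 0 to 298 (0 to 182 higher, 0 to 116 lower), among them 49 (45, 4) without MZ replicate 2 and 45 (25, 20) without het replicate 3. The count of 0, without MZ replicate 3, stood beside 2229 genes at an unadjusted edgeR p under 0.05. All 172 kept their direction in these fits, which the lack of overlap between their groups all but fixed in the plain ones. Of 88 named called genes, 85 kept their call with RLE size factors, 60 in one fit over 18 libraries, 36 under the block and 18 with the trend removed. The cause of these changes was not tested. The slope difference stayed between -0.449 and -0.2998. Effects that differed between 15 and 5 dpf numbered 2850 to 4727, and those between 15 and 30 dpf 346 to 799 without 1 library and 657 to 916 otherwise. Few counts limit the precision for cyp2k6 and gnrh2 (8 to 15 and 4 to 16 counts in het libraries) and for scospondin (1 to 7 in all libraries at 15 dpf).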
